A study of Homo sapiens with 12 samples.

Results

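The genes that supply, build and activate fatty acids were followed in input RNA of C4-2 cells: the citrate carrier SLC25A1, the acetyl-CoA sources ACLY and ACSS2, the carboxylase ACACB, fatty acid synthase FASN, and the long-chain acyl-CoA synthetases ACSL1, ACSL3 and ACSL4. These 8 were given as a list of names, with earlier results of these data known, and all 8 were found by Ensembl identifier among the 20308 genes of the deposited expression table. C4-2 is an established human line of castration-resistant prostate cancer derived from LNCaP. The cells carried an ALKBH5 overexpression construct (oeALKBH5) or an empty vector (NC), with 3 input libraries per group and no further treatment given. ALKBH5 is an enzyme that erases the RNA mark N6-methyladenosine (m6A). The construct, its promoter and whether the cells are 1 clone are not given in the sources used here, nor whether each replicate is a culture of its own. The p-values therefore reflect library-to-library spread alone, and that spread may be technical.

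Fatty acid synthesis starts from citrate, which leaves mitochondria and is split in the cytosol to acetyl-CoA. Acetyl-CoA is carboxylated to malonyl-CoA, and fatty acid synthase joins these units into palmitate with NADPH as the reductant. A fatty acid enters phospholipids, triglycerides or oxidation only after a synthetase has joined it to coenzyme A. Prostate cancer cells are known for active lipid synthesis, and SREBP transcription factors are its main activators at the genes of the pathway. ACACA, the cytosolic carboxylase, was not matched in the table and is not analysed here.

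Values are FPKM, which are scaled to transcript length, so levels of different genes can be set side by side. The targeted gene ALKBH5 stood at 80.3, 74.3 and 72.5 FPKM in oeALKBH5 libraries, against 64.9, 61.1 and 58.2 FPKM in NC libraries. All 3 oeALKBH5 libraries were above all 3 NC libraries, but the difference was not called by limma (log2 fold change 0.30, SE 0.10, adjusted p = 0.114), and whether reads of the introduced copy are in this value is not known here. Library sums ranged from 511333 to 512996 FPKM in oeALKBH5 and from 514140 to 524905 FPKM in NC. Absolute depth is unknown; from the commonest ratio among low values, depth relative to NC replicate 1 was 1.07, 0.783 and 0.830 in oeALKBH5 replicates 1, 2 and 3, against 1.13 and 1.00 in NC replicates 2 and 3. Luminal prostate markers were present in every library: the 11 markers summed to 2572 to 2767 FPKM in oeALKBH5 and 2527 to 2556 FPKM in NC. KRT8, a luminal keratin, rose to 223.5 ± 13.2 FPKM in oeALKBH5, against 136.9 ± 8.44 FPKM in NC (SD, n = 3 each, log2 fold change 0.70, limma adjusted p = 0.00242). It was the 1 marker of the 11 that was called, where 5.45% of all tested genes were called in either direction. Groups did not overlap in 4 of the 11 that were higher in oeALKBH5 and 1 that was lower. Over all tested genes, 15.1% had non-overlapping groups in the higher direction and 13.0% in the lower. Of the markers of other cell types, 4 of 5 adipocyte genes were at 0 in all 6 libraries. The 10 immune markers summed to 5.01 to 8.39 FPKM in oeALKBH5, against 0.521 to 4.28 FPKM in NC, with 3 at 0 throughout. Of the 3 immune markers tested none was called, 1 was negative and 1 had groups apart, higher in oeALKBH5 (median log2 fold change 1.07). The 9 fibroblast markers summed to 4.23 to 28.5 FPKM in oeALKBH5 and 4.20 to 13.1 FPKM in NC, with 2 at 0 throughout. The 2 fibroblast markers tested were not called, and neither was negative (median log2 fold change 0.27). The 4 endothelial markers in the table summed to 0.444 to 0.602 FPKM in oeALKBH5 and 0.683 to 1.123 FPKM in NC, with 1 at 0 throughout. The 1 endothelial marker tested had groups apart, lower in oeALKBH5, without a call. The part of such cells in the results was not tested.

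Promoter sequence is shown for the members outside FASN whose groups did not overlap, because the pathway is known for control at its promoters. Windows from RefSeq (GRCh38.p14) were found for 7 of the 8 members, FASN being the exception, and for 14 annotated starts. The 250 bases before each start were searched on both strands for the sterol regulatory element (TCACNCCAC), the E-box (CACGTG), the NF-Y box (CCAAT) and the GC box (GGGCGG). The NF-Y box or its reverse complement ATTGG is in capitals. Printed 5′ to 3′ along each gene are SLC25A1 at chr22:19178737-19178986, ACLY at chr17:41919023-41919272 (both minus strand) and ACSL3 at chr2:222860786-222861035 (plus strand).
SLC25A1: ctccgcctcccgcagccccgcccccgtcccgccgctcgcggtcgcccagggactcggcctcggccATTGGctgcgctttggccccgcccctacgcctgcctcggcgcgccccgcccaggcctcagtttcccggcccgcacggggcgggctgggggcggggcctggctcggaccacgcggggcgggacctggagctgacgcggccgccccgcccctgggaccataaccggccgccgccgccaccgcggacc
ACLY: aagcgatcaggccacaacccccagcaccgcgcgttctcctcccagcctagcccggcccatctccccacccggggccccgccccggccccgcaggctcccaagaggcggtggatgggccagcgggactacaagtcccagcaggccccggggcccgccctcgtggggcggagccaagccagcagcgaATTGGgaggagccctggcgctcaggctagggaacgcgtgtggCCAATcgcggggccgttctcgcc
ACSL3: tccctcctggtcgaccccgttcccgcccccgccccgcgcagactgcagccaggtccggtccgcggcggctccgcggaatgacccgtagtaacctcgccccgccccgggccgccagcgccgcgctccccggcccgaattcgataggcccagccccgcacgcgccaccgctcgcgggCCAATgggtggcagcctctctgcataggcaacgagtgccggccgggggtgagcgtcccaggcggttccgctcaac

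ACLY holds 2 NF-Y boxes in this window, and SLC25A1 and ACSL3 hold 1 each. The box is not particular to these genes: 6 of the 7 members with a window held it at some start, also ACACB, ACSS2 and ACSL1, whose groups overlapped. A GC box was found in all 7. An NF-Y box was found in 7 of the 14 windows, among 32.0% of 35116 RefSeq windows, and a GC box in 10 of the 14, among 42.6% of RefSeq windows. No window of a member held CACGTG, found in 6.34% of all windows. The sterol regulatory element, found in 0.883% of all windows, occurred at 1 of the 5 starts of ACSL1 (chr4:184805772-184805803, minus strand, element in capitals).
ACSL1: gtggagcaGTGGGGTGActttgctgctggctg

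Of the 8 genes, FASN fell in oeALKBH5 cells and the other 7 were not called by limma at an adjusted p under 0.05. Over all 12757 tested genes, 2.43% were called lower, 3.02% higher and 5.45% in either direction. Groups did not overlap in 4 of the 8 genes, FASN, SLC25A1, ACLY and ACSL3, each lower in oeALKBH5, where 13.0% of all tested genes had non-overlapping groups in that direction and 28.1% in either. Log2 fold changes were negative in 6 of the 8 genes, against 47.7% of tested genes, with a median of -0.20 over the 8 and 0.02 over all tested genes. ACACB, 1 of the 6, stood at -0.03 and changed sign in 6 of 15 alternative fits. A value per library cannot tell fewer cells with the RNA from less RNA per cell.

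**Figure D1:**
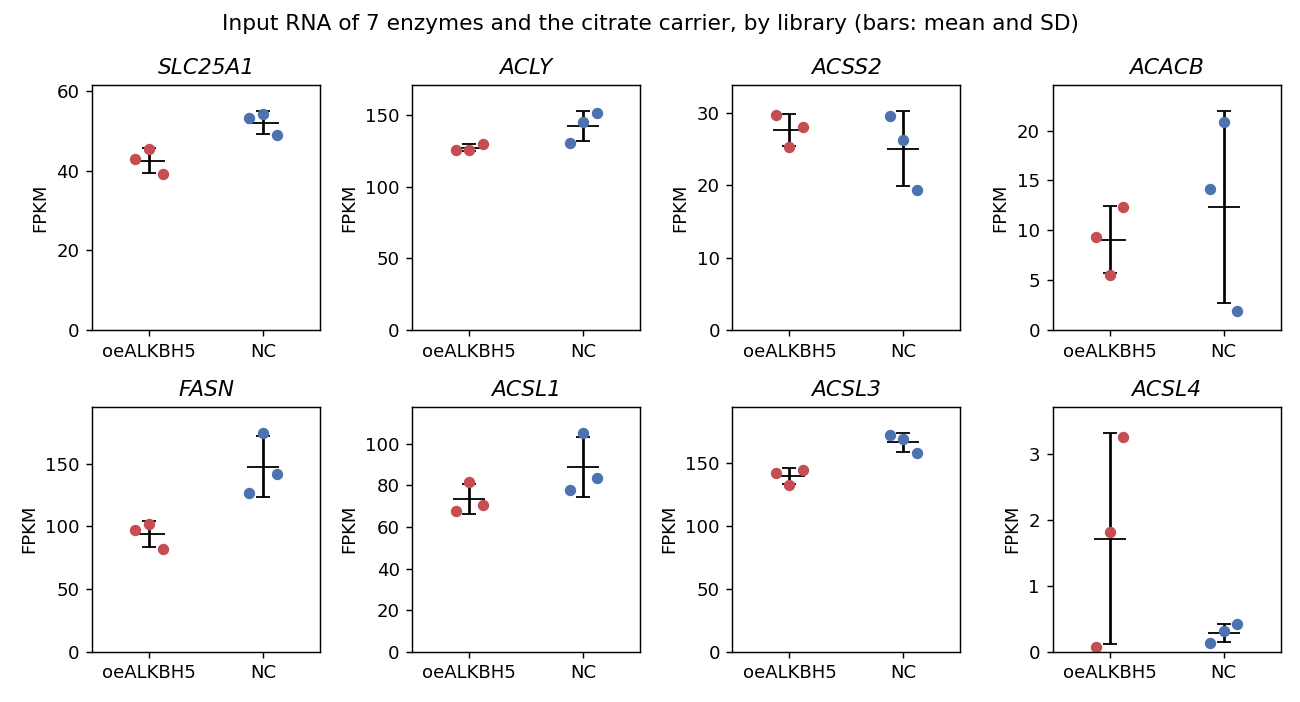
FPKM of each member in the 3 oeALKBH5 (red, left) and 3 NC (blue, right) input libraries; points are replicates 1 to 3 from left to right, and bars give the mean and SD. FASN, SLC25A1, ACLY and ACSL3 have every oeALKBH5 library below every NC library, while ACACB and ACSL4 spread widely within a group.

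SLC25A1 (ENSG00000100075), the carrier that exports citrate across the mitochondrial inner membrane, had 42.8, 45.4 and 39.2 FPKM in oeALKBH5 libraries, against 53.1, 54.3 and 48.8 FPKM in NC libraries. The groups were apart, but the log2 fold change of -0.29 (95% interval -0.54 to -0.04) missed the threshold over all genes (limma adjusted p = 0.165). ACLY (ENSG00000131473), which splits cytosolic citrate into acetyl-CoA and oxaloacetate, had 126.0, 125.8 and 130.1 FPKM in oeALKBH5, against 130.9, 145.1 and 151.3 FPKM in NC. Its highest oeALKBH5 library and its lowest NC library were close together, and the difference was not called (log2 fold change -0.16, 95% interval -0.35 to 0.03, limma adjusted p = 0.303).

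ACSS2 (ENSG00000131069) makes acetyl-CoA from acetate in the cytosol and nucleus. Its values were 29.7, 25.2 and 28.04 FPKM in oeALKBH5 libraries, against 29.5, 26.3 and 19.3 FPKM in NC libraries. The groups overlapped, NC replicate 3 being the lowest library, and the log2 fold change was 0.16 (95% interval -0.24 to 0.55, limma adjusted p = 0.643). ACACB (ENSG00000076555) is the carboxylase of the outer mitochondrial membrane, where its malonyl-CoA restrains fatty acid entry into mitochondria. It had 9.29, 5.56 and 12.3 FPKM in oeALKBH5, against 14.1, 20.9 and 1.89 FPKM in NC. The 2 extreme values of the 6 were both NC libraries, with 11.1-fold between them, and 99.6% of the 4725 genes within 2-fold of its mean level had a smaller within-group SD. The interval of its difference was wide (log2 fold change -0.03, 95% interval -1.53 to 1.47, limma adjusted p = 0.986); without NC replicate 3 the value was -0.92, and without NC replicate 2 it was 0.54.

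FASN (ENSG00000169710), the multi-domain enzyme that builds palmitate, had 97.4, 101.8 and 82.0 FPKM in oeALKBH5 libraries, against 126.4, 174.6 and 141.9 FPKM in NC libraries. All 3 oeALKBH5 libraries were below all 3 NC libraries, and the mean fell by 36.5%, to 93.7 ± 10.4 FPKM in oeALKBH5, against 147.6 ± 24.6 FPKM in NC (SD, n = 3 each). The log2 fold change was -0.64 (SE 0.13, 95% interval -0.95 to -0.34, limma adjusted p = 0.0300). Its libraries were spread more than most: 83.2% of the 1248 genes within 2-fold of its mean level had a smaller within-group SD. FASN was no longer called in 5 of the 6 leave-one-out fits: leaving out oeALKBH5 replicate 1, 2 or 3 gave a limma adjusted p of 0.0739, 0.0670 or 0.0955, and leaving out NC replicate 2 or 3 gave 0.0821 or 0.104. The log2 fold change in those fits and in the remaining one ran from -0.75 to -0.52. Nor was it called with no filter on low genes (adjusted p = 0.0870) or with no trend in the variance (adjusted p = 0.110).

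**Figure D2:**
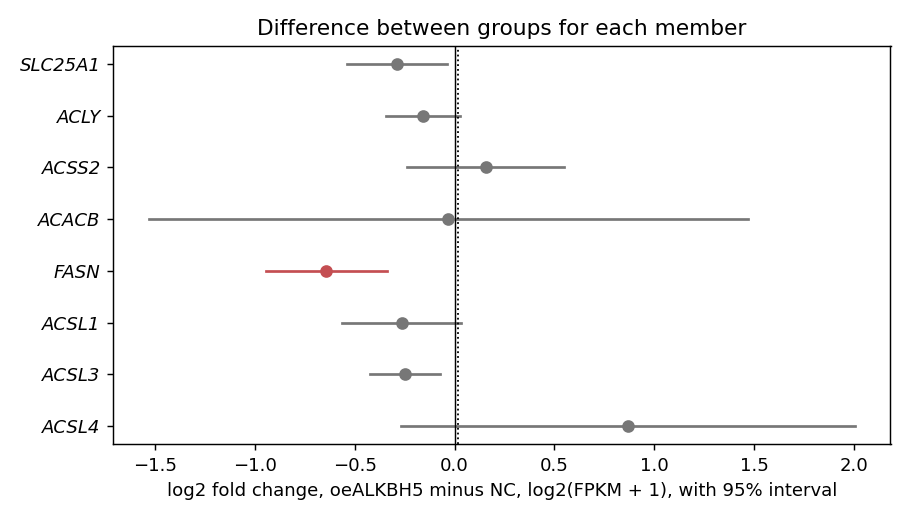
Log2 fold change of each member (oeALKBH5 minus NC on the log2(FPKM + 1) scale) with its 95% limma interval; red marks an adjusted p under 0.05 and the dotted line is the median of all tested genes, 0.02. FASN at -0.64 is the only member called, and the intervals of ACACB and ACSL4 are the widest.

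FASN also stood lower relative to ACLY, in a ratio that uses the same FASN values and is not a separate observation. The FASN to ACLY ratio of FPKM was 0.773, 0.809 and 0.630 in oeALKBH5 libraries, against 0.966, 1.20 and 0.938 in NC libraries. The ratios of the groups did not overlap; the log2 ratio differed by -0.49, with means of -0.45 ± 0.19 in oeALKBH5 and 0.04 ± 0.20 in NC (SD, n = 3 each). A two-sided exact permutation test gave p = 0.1, the smallest that 3 libraries against 3 allow, and 0.4 after Benjamini-Hochberg adjustment over the 4 ratios compared. The ACLY to SLC25A1 ratio overlapped between groups, at 2.94, 2.77 and 3.32 in oeALKBH5 and 2.46, 2.67 and 3.10 in NC (log2 difference 0.14, exact permutation p = 0.4, adjusted p = 0.533).

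The acyl-CoA synthetases differ in substrate and place. ACSL3 (ENSG00000123983), an androgen-responsive enzyme of the endoplasmic reticulum and lipid droplets, had the highest mean of the 8 genes in both groups, with 142.1, 132.3 and 144.1 FPKM in oeALKBH5 libraries, against 171.7, 168.9 and 157.6 FPKM in NC libraries. Its groups were apart, and its mean was 139.5 ± 6.33 FPKM in oeALKBH5 and 166.1 ± 7.52 FPKM in NC (SD, n = 3 each), yet the log2 fold change of -0.25 (95% interval -0.42 to -0.07) missed the threshold (limma adjusted p = 0.102). ACSL1 (ENSG00000151726), which accepts a broad range of long chains, had 67.9, 81.7 and 70.5 FPKM in oeALKBH5, against 77.7, 105.3 and 83.7 FPKM in NC. Replicate 2 was the highest library of each group, the groups overlapped, and the difference was not called (log2 fold change -0.27, 95% interval -0.56 to 0.03, limma adjusted p = 0.281).

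ACSL4 (ENSG00000068366) prefers arachidonate and related chains and is known for its part in ferroptosis. It was the lowest of the 8 genes, at 0.0649, 1.82 and 3.26 FPKM in oeALKBH5 libraries, against 0.139, 0.306 and 0.416 FPKM in NC libraries. Both extreme libraries of the 6 were oeALKBH5 libraries, so the groups overlapped, and the log2 fold change of 0.87 (95% interval -0.27 to 2.01) was not called (limma adjusted p = 0.349). Without oeALKBH5 replicate 1 it was 1.44 (adjusted p = 0.0797), without oeALKBH5 replicate 3 it was 0.44 (adjusted p = 0.673), and with a pseudocount of 0.1 it was 1.47. The higher values came from oeALKBH5 replicates 2 and 3, the libraries with the lowest relative depth; the part of depth in them was not tested.

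ACSL3 made up most of the RNA of the 3 synthetases in both groups. Its share of their summed FPKM was 67.6%, 61.3% and 66.1% in oeALKBH5 libraries, against 68.8%, 61.5% and 65.2% in NC libraries. ACSL4 held at most 1.497% in an oeALKBH5 library and at most 0.172% in an NC library. The sum of the 3 was 210.1 to 218.0 FPKM in oeALKBH5, against 241.6 to 274.5 FPKM in NC. The ACSL1 to ACSL3 ratio was 0.478, 0.617 and 0.489 in oeALKBH5 and 0.452, 0.623 and 0.531 in NC, so that its groups overlapped (log2 difference -0.02, exact permutation p = 0.9, adjusted p = 0.9). The log2 ratio of ACSL3 to ACSL4 averaged 7.58 ± 3.07 in oeALKBH5 and 9.32 ± 0.87 in NC (SD, n = 3 each; difference -1.73, exact permutation p = 0.4, adjusted p = 0.533); without oeALKBH5 replicate 1 the difference was -3.49, without oeALKBH5 replicate 2 it was -1.04 and without oeALKBH5 replicate 3 it was -0.68. The relatives ACSL5 and ACSL6, named after their values were seen, had 0.131 to 3.42 FPKM and 2.53 to 7.64 FPKM in oeALKBH5 libraries, against 0.109 to 0.663 FPKM and 1.56 to 3.54 FPKM in NC libraries, all below ACSL1. ACSL6 was above ACSL4 in every library, and neither relative is part of the shares given here.

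**Figure D3:**
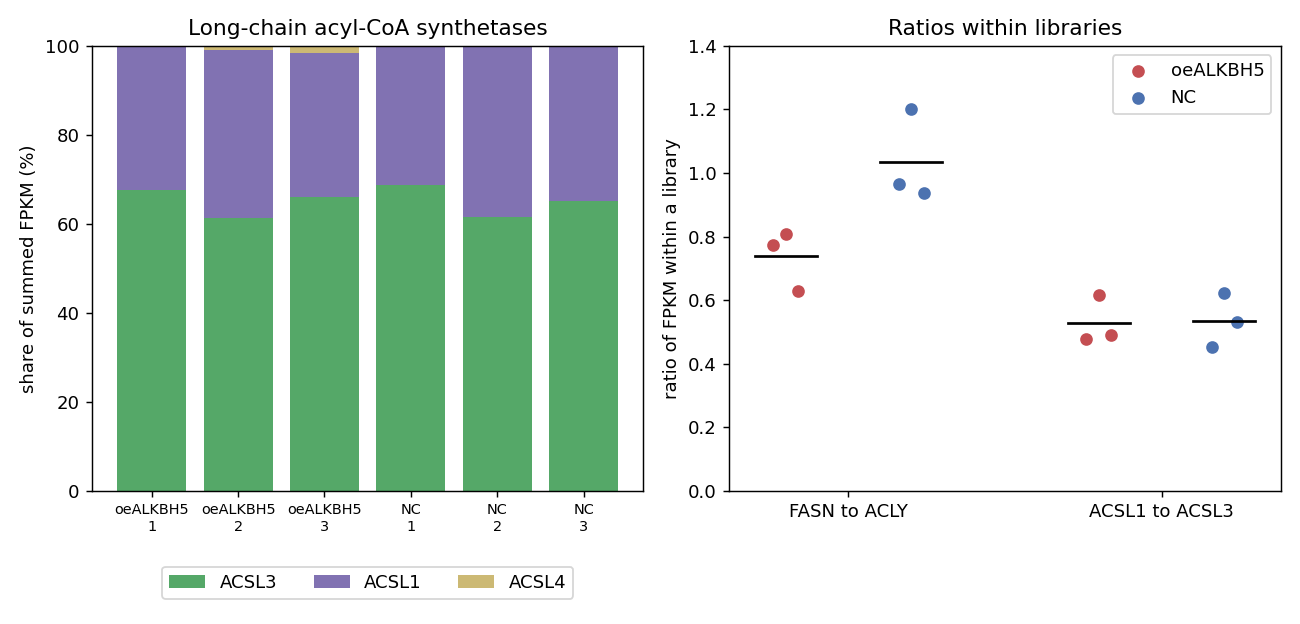
Left, share of ACSL3, ACSL1 and ACSL4 in their summed FPKM in each library (oeALKBH5 replicates, then NC replicates); right, ratio of FPKM within each library, with the mean as a line. ACSL3 holds 61.3% to 68.8% in every library, and the FASN to ACLY ratio is at most 0.809 in the 3 oeALKBH5 libraries and at least 0.938 in the 3 NC libraries.

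In order of mean level, oeALKBH5 cells had ACSL3, ACLY, FASN, ACSL1, SLC25A1, ACSS2, ACACB and ACSL4, and the libraries of no 2 neighbours overlapped. In NC cells the mean of FASN stood above that of ACLY, but only through NC replicate 2 (174.6 against 145.1 FPKM). In NC replicates 1 and 3 FASN was below ACLY. The NC ranges of ACSL3, FASN and ACLY overlapped in turn, as did those of ACSS2 and ACACB. FASN, ACLY and ACSL3 lay in the top 5% of tested genes by mean FPKM, at the 95.1, 95.7 and 96.3 percentiles, and ACSL4 lay at the 6.22 percentile. The 8 genes together summed to 509.6 to 519.6 FPKM in oeALKBH5 libraries, against 603.6 to 695.6 FPKM in NC libraries. This sum is carried by the genes of high level, FASN among them, while ACSS2 and ACSL4 averaged higher in oeALKBH5 cells. Likeness of pattern was measured as the root mean square distance between centred log2(FPKM + 1) profiles over the 6 libraries, among the 7706 named genes averaging 10 FPKM or more. Nearest to FASN were POLD2 (distance 0.07), PARK7 (0.07), CHAF1B (0.08), SLC25A13 (0.08) and LRBA (0.09). POLD2, a subunit of DNA polymerase delta, had 67.8, 72.6 and 61.6 FPKM in oeALKBH5 and 95.6, 115.3 and 98.9 FPKM in NC. Nearest to ACSL3 were ARID2 (0.03), ACP1 (0.03) and TMEM33 (0.04), and nearest to ACSL1 were ANAPC13 (0.05), FAHD1 (0.06) and ID3 (0.06). Among the 8 genes the closest pair was SLC25A1 and ACSL3, at a distance of 0.10.

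Other genes of fatty acid metabolism were taken from 9 lists with 170 tested genes, of which 5 rose and 12 fell, beside 3.02% higher and 2.43% lower over all tested genes. Among enzymes that supply citrate and NADPH, 3 of 15 fell and the other 12 were not called, with a median log2 fold change of -0.19. ME1, the cytosolic malic enzyme that yields NADPH, had 26.1, 41.5 and 27.7 FPKM in oeALKBH5 libraries, against 81.6, 80.8 and 91.4 FPKM in NC libraries (log2 fold change -1.41, SE 0.17, limma adjusted p = 0.00315). IDH1, the cytosolic NADPH-producing isocitrate dehydrogenase, had 199.8, 223.7 and 225.0 FPKM in oeALKBH5, against 319.7, 315.8 and 344.4 FPKM in NC (limma adjusted p = 0.00371). MDH2, the mitochondrial malate dehydrogenase, averaged 80.0 ± 4.89 FPKM in oeALKBH5 and 114.5 ± 6.24 FPKM in NC (SD, n = 3 each; limma adjusted p = 0.0152). Groups were apart for all 3, where 13.0% of all tested genes had groups apart in that direction. These 3 were named because they were called from the same values, so this is not separate support. ME1 and IDH1 kept their calls in all 6 leave-one-out fits, IDH1 and MDH2 were not called with no trend in the variance, and MDH2 lost its call without oeALKBH5 replicate 1, oeALKBH5 replicate 2, NC replicate 2 and NC replicate 3 (adjusted p up to 0.0788).

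Of 30 regulators of lipid synthesis, only INSIG1 was called, lower in oeALKBH5, and 29 were not, with a median log2 fold change of 0.16. Over all tested genes, 5.45% were called in either direction. INSIG1, an endoplasmic reticulum protein that retains SREBP and is itself an SREBP target, had 38.1, 40.6 and 36.5 FPKM in oeALKBH5 libraries, against 64.3, 81.0 and 75.8 FPKM in NC libraries (log2 fold change -0.92, SE 0.12, limma adjusted p = 0.00425), a call kept in all 6 leave-one-out fits. SREBF1, which encodes the SREBP form tied to fatty acid genes, had 106.5, 108.2 and 82.3 FPKM in oeALKBH5, against 73.8, 79.4 and 73.1 FPKM in NC. These groups were apart in the direction opposite to FASN, without a call (log2 fold change 0.38, 95% interval 0.11 to 0.65, limma adjusted p = 0.109). SREBF2 averaged 39.2 ± 14.3 FPKM in oeALKBH5 and 45.8 ± 2.98 FPKM in NC (limma adjusted p = 0.526). SCAP, the escort of SREBP, averaged 16.8 ± 2.56 FPKM in oeALKBH5 and 24.4 ± 1.70 FPKM in NC. Its groups were apart, lower in oeALKBH5, without a call (log2 fold change -0.52, 95% interval -0.87 to -0.16, limma adjusted p = 0.0976). THRSP, a lipogenic cofactor, was below 1 FPKM in every library.

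Downstream of palmitate, 3 of 17 desaturases and elongases fell and the other 14 were not called (median log2 fold change -0.17), where 2.43% of all tested genes were called lower. FADS2, a desaturase of polyunsaturated chains, averaged 200.3 ± 12.6 FPKM in oeALKBH5 and 345.8 ± 36.3 FPKM in NC, and the elongase ELOVL7 averaged 18.6 ± 1.48 FPKM in oeALKBH5 and 34.9 ± 2.20 FPKM in NC (SD, n = 3 each); both kept their calls in all 6 leave-one-out fits. The elongase ELOVL2 averaged 0.596 ± 0.0736 FPKM in oeALKBH5 and 2.53 ± 0.259 FPKM in NC and lost its call in every one of them (adjusted p up to 0.134).

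Of 13 tested acyl-CoA and acetyl-CoA synthetases outside the 8 genes, none was called by limma, with a median log2 fold change of 0.20. Among all tested genes, 5.45% were called in either direction. Among 16 acyl-CoA binding proteins and thioesterases, 1 fell, the lysosomal thioesterase PPT1 (54.6 ± 3.39 FPKM in oeALKBH5 and 74.3 ± 3.07 FPKM in NC, SD, n = 3 each), and 15 were not called (median -0.07). In the list of malonyl-CoA metabolism and mitochondrial fatty acid synthesis, 1 of 13 fell, the acyl carrier protein NDUFAB1 (120.1 ± 1.94 FPKM in oeALKBH5 and 151.0 ± 7.95 FPKM in NC), and 12 were not called (median 0.13). PPT1 and NDUFAB1 lost their calls in all 6 leave-one-out fits, where their adjusted p reached 0.126 and 0.161.

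**Figure D4:**
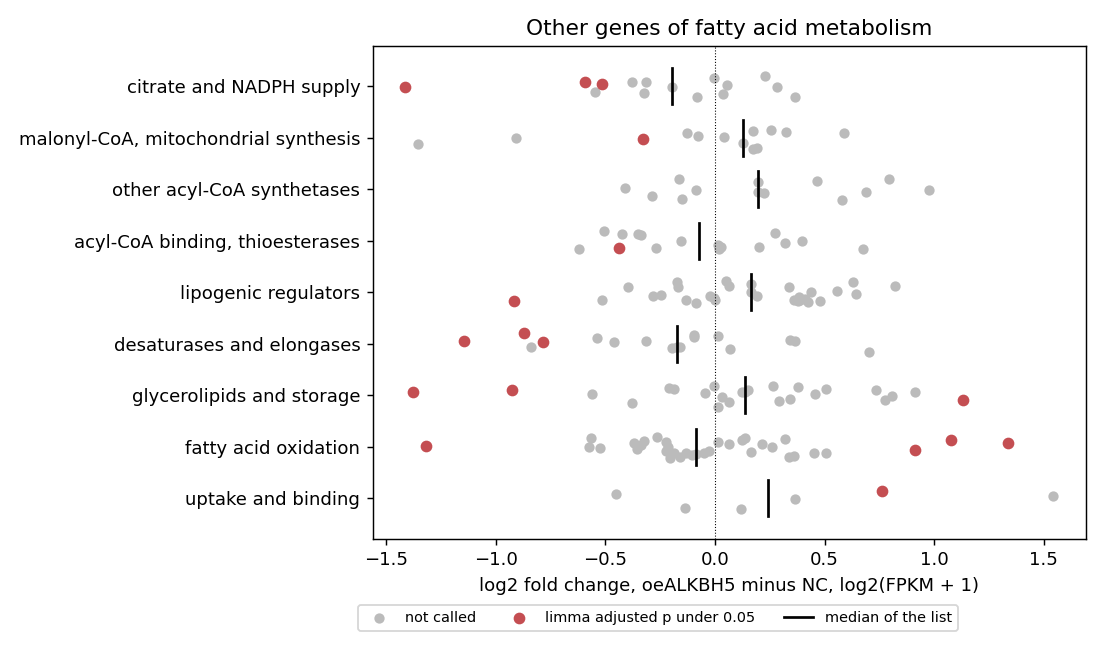
Log2 fold change (oeALKBH5 minus NC on the log2(FPKM + 1) scale) of the 170 tested genes in 9 lists; red points have a limma adjusted p under 0.05, grey points do not, and the bar is the median of the list. The calls among citrate and NADPH supply, desaturases and elongases lie below 0, and those of fatty acid oxidation lie on both sides.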

How the data were processed

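Input RNA of 6 libraries was analysed. The table's columns carry code names, which were tied to the oeALKBH5 and NC inputs through the sample descriptions; the codes there are followed by Input or IP, the columns are not, and the design text gives the inputs as the RNA sequencing. The deposited table holds values taken as FPKM: the unit is not in the header and was inferred from the values and the tools listed in the submitters' processing notes (cutadapt 1.9.3, HISAT2 2.0.4, Cufflinks, Cuffdiff, build hg19, roles not given). Libraries were rRNA-depleted and directional, per the labels' protocols; whether strand was used in counting is not given in the sources used here. No member had a value above 0 and under 1e-06 FPKM, a failed estimate found in 431 genes. Several members overlap other RefSeq genes, such as SNORD134 for FASN and ACSL3-AS1 for ACSL3. None of these was found in the table by symbol, and the part of their reads in the values was not tested.

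Gene symbols were matched for 19434 of 20308 genes. Genes averaging 0.5 FPKM or more were fitted as log2(FPKM + 1) with limma 3.58.1 (R 4.3.3) with a variance trend, adjusted by Benjamini-Hochberg over 12757 genes, threshold 0.05. That log2 scale understates changes of low genes. Ratios within libraries had two-sided exact permutation tests (Python 3.11.15, scipy 1.17.1). The fit was run on simulated data with known fold changes. It missed most genes changed by 0.5 in log2 and many changed by 1, and made a few false calls. A gene not called may therefore still differ. Changes were given to a small part of the genes there, none of them of low level, so these rates need not hold for these data.

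Members and lists were chosen with earlier results of these data known. Named were the 8 members, up to 6 called genes per list, fixed regulators, and the genes nearest in pattern to FASN, ACSL3 and ACSL1. Peaks of m6A could not be placed in the members without an hg19 annotation and were not used. Alternatives were other pseudocounts, filters, scalings and variance models, a replicate block, and leaving out each library.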

Additional observations from a re-analysis of the deposited data

How the results depend on the processing

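The number of called genes, 695, was 421 with no filter, 270 with no trend in the variance and 206 to 398 when 1 library was left out, and FASN, the 1 called member, was lost (0 called) with no filter and with no trend; leaving out 1 library gave 0 to 1 called members. These fits differ from the reported one in the genes tested, the variance model or the number of libraries. With the replicate block 344 genes were called and FASN kept its call (adjusted p = 0.0417). The replicate numbers share no stated origin: deviations of same-numbered libraries correlated across genes at -0.02, -0.02 and 0.03, and oeALKBH5 replicate 1 correlated best with NC replicate 2, at 0.05. ACACB changed sign to 0.048 with a pseudocount of 0.1, 0.0056 with a pseudocount of 0.5 and 0.23 with array weights, and ran from -0.92 to 0.54 when 1 library was left out; the cause was not tested. ACSS2 ran from -0.012, without NC replicate 3, to 0.28, and the log2 difference of ACSL1 to ACSL3 from -0.13 to 0.10, over the same fits. The other 6 members kept their direction in all 15 alternatives each. Limits set by depth cannot be given without counts. Other score thresholds and overlaps for m6A peaks were not run, since peaks were not used.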

Other observations

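Most tested genes that take up, store or burn fatty acids were not called, where 3.02% of all tested genes were called higher and 2.43% lower. Among 6 tested genes of uptake and binding, 1 rose, lipoprotein lipase LPL, at 60.8, 68.9 and 74.1 FPKM in oeALKBH5 libraries, against 40.7, 42.1 and 35.9 FPKM in NC libraries (log2 fold change 0.76, limma adjusted p = 0.00977; adjusted p = 0.0512 without NC replicate 3, and not called with no trend in the variance), and 5 were not called. Of 25 genes of glycerolipid synthesis and storage, 1 rose and 2 fell, with 22 not called. HILPDA, a hypoxia-inducible lipid droplet protein, averaged 70.4 ± 7.12 FPKM in oeALKBH5 and 31.9 ± 6.59 FPKM in NC (SD, n = 3 each), a call kept in all 6 leave-one-out fits. SOAT1, which esterifies cholesterol, averaged 16.8 ± 4.19 FPKM in oeALKBH5 and 32.2 ± 2.26 FPKM in NC, and LPCAT2 averaged 0.618 ± 0.443 FPKM in oeALKBH5 and 3.12 ± 0.561 FPKM in NC. LPCAT2 lost its call in all 6, and SOAT1 in all but the one without oeALKBH5 replicate 2 (adjusted p up to 0.155 and 0.129).

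Of 35 genes of fatty acid oxidation, 3 rose and 1 fell, with 31 not called and a median log2 fold change of -0.08. Over all tested genes, 3.02% were called higher and 2.43% lower. The mitochondrial thiolase ACAA2 had 12.8, 14.0 and 9.67 FPKM in oeALKBH5 libraries, against 5.52, 4.98 and 2.51 FPKM in NC libraries. The peroxisomal oxidase ACOX3 averaged 15.5 ± 1.96 FPKM in oeALKBH5 and 7.03 ± 2.37 FPKM in NC, and the nuclear receptor PPARA averaged 8.90 ± 0.926 FPKM in oeALKBH5 and 4.25 ± 0.361 FPKM in NC (SD, n = 3 each). ACOX2, a peroxisomal oxidase of branched chains, fell to 3.80 ± 1.02 FPKM in oeALKBH5, against 10.9 ± 2.15 FPKM in NC. ACOX3 and PPARA lost their calls in all 6 leave-one-out fits, ACAA2 in all but the one without NC replicate 1, and ACOX2 without oeALKBH5 replicate 1, oeALKBH5 replicate 2, NC replicate 1 and NC replicate 3 (adjusted p up to 0.135).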
